A study of Rattus norvegicus with 45 samples.

Results

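The 7 genes described here encode subunits of the GABA-A receptor: Gabra2, Gabra4, Gabra5, Gabrb1, Gabrb2, Gabrg1 and Gabrd. They were chosen by gene symbol and not by a rule on measured values, though earlier results of these data were known. The array carries 9 probe sets for them among 31099, 1 for each gene except Gabrd, which has 3. The probe set of Gabra2 (1397614_at) stands in the annotation under an older locus name and was matched through its gene record. RNA came from hippocampal CA1, CA3 and dentate gyrus (DG) of 15 male F344xBN hybrid rats, with 1 Affymetrix RAE230 2.0 array per region and animal, 45 arrays in all.

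The 5 classes hold 3 animals each. Middle-aged rats (ALMA) were 18 months old and ate ad libitum. Old rats of 28 months ate ad libitum and were classed as good performers (ALO_GP) or poor performers (ALO_PP). Old rats of the same age on restricted food were classed likewise (CRO_GP, CRO_PP). Restriction started at 14 weeks with a cut of 10%, went to 25% and stood at 40% from 17 weeks. No transgene or surgery is named for any class, there is no restricted middle-aged class, and the sources used here do not name the task that graded performance. The comparisons ask how the subunits differ between regions, with age, with diet and with performance.

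GABA-A receptors are chloride channels opened by the transmitter GABA, and they carry most fast inhibition in the hippocampus. Each channel combines alpha, beta and mostly gamma subunits, and its makeup sets where it sits and how it responds. Receptors with a gamma subunit can bind benzodiazepines and many lie at synapses, where they give brief inhibition. In dentate granule cells of rodents, Gabra4 and Gabrd products form receptors outside synapses that hold a steady inhibition and respond strongly to neurosteroids. Gabra5 receptors do much the same in pyramidal cells of CA1 and CA3.

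Of the 7 genes, 4 lie together on rat chromosome 14, in the order Gabrb1, Gabra4, Gabra2, Gabrg1. RefSeq places 0 protein-coding genes between Gabrb1 and Gabra4, 1 (Cox7b2) between Gabra4 and Gabra2, and 0 between Gabra2 and Gabrg1. Gabra5 lies on chromosome 1, Gabrb2 on chromosome 10 and Gabrd on chromosome 5. Promoter windows of RefSeq (assembly GRCr8, 250 bases before to 50 after an annotated start) were found for 6 of the 7 genes, without Gabra2. The windows of Gabrd, Gabra4 and Gabrg1 stand at the start of the gene's full span. Those of Gabra5, Gabrb1 and Gabrb2 lie inside that span. Windows of the 3 genes with the widest differences between regions in the ad libitum animals are shown 5′ to 3′ on the gene's strand. Capitals mark GC boxes (GGGCGG) and EGR sites (GCGNGGGCG), searched on both strands.
Gabrd, GRCr8 chr5:171252660-171252959, minus strand: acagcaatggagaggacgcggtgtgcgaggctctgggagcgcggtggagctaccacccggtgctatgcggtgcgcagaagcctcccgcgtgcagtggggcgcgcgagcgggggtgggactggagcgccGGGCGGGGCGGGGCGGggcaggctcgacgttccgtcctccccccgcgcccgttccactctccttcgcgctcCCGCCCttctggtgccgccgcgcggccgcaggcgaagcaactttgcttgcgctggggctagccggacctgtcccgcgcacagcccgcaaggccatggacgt
Gabra4, GRCr8 chr14:36944497-36944796, plus strand: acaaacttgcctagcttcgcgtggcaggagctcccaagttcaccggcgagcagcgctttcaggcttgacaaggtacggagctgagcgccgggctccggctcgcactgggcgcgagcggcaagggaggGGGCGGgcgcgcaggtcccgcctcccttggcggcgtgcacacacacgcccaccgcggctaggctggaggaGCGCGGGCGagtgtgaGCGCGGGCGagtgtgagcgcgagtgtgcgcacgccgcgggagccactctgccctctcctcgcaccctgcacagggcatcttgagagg
Gabra5, GRCr8 chr1:117516557-117516856, minus strand: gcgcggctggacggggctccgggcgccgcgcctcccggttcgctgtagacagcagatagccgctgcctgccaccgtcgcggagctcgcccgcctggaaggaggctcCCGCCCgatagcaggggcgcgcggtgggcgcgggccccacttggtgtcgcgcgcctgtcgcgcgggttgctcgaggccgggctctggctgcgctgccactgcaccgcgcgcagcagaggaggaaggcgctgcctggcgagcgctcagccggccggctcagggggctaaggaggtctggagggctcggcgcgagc

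The Gabrd window holds 4 GC boxes, of which 3 overlap by their end bases, the Gabra4 window 1 and the Gabra5 window 1. The Gabra4 window also holds 2 EGR sites. Among 33469 rat promoter windows of the same 300 bases, 33.1% hold a GC box and 5.0% an EGR site. The windows of Gabrd, Gabra4 and Gabra5 are 73.7%, 70.7% and 76.3% G or C, against a median of 51.7% over all windows. Those of Gabrb1, Gabrb2 and Gabrg1 are 49.3%, 44% and 48.7% and hold none of these motifs. The cAMP response element (TGACGTCA) and the TATA box (TATAAA), present in 1.8% and 14.2% of all windows, were found in none of the 6. The E-box (CANNTG), in 72.1% of all windows, was found once, in that of Gabra5. These matches describe letters only, in windows that do not all stand at the start of the gene's full span.

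Median dChip signals ran from 151.2 to 175.5 in the table of 27 ad libitum arrays and from 153.1 to 187.7 in that of 36 old arrays, and 58.9% to 67.4% of probe sets were called present. Region markers, summed per array in the second deposited signal (the value table), went with the labels on the whole: 6 dentate granule markers summed to 1573 to 2899 in DG, 668 to 2160 in CA1 and 457 to 1223 in CA3. Of these markers, Prox1 and Tdo2 were under 20 on every DG array. The CA3 array of ALO_PP animal 2 went against its label, with the highest CA1 marker sum of the CA3 arrays (4810, others 1072 to 3231) and the lowest CA3 marker sum (1657, others 1844 to 3129). The CA1 array of CRO_PP animal 3, which the authors marked as an outlier together with that animal's CA3 array, had the highest astrocyte sum (27261, others 14812 to 19113) and oligodendrocyte sum (28745, others 11813 to 17598) of the CA1 arrays. The region, diet and performance results that these arrays bear on most are also given without them. Among all CA3 arrays, the CA1 marker sums were higher by median in old ad libitum animals (3085, range 1954 to 4810). They were 1653 (1072 to 2152) in middle-aged and 1857 (1288 to 2465) in restricted animals. The ranges overlapped, and the part of this in the age and diet differences in CA3 was not tested. The DG array of ALO_GP animal 1 had the lowest dentate granule sum in DG (1573), below the 1992 of that animal's CA1 array. It also had the highest CA3 pyramidal sum (2269) and meninges and fibroblast sum (3252) of the DG arrays. Fits without this animal are among those that left out 1 animal. The arrays also fell into 3 sets by a spiked poly-A control: set A, 9 arrays at 533.9 to 700, held every middle-aged array, set B, 22 arrays at 147.5 to 283.2, held every old ad libitum array and 4 of the restricted ones, and set C, 14 arrays at 0.495 to 12.6, held the other 14. Age cannot be told apart from set A against B, nor diet in DG from set B against C, while the ad libitum regions can be compared within a set. In CRO_GP the CA1 arrays are in set B, the DG arrays in set C and the CA3 arrays in both.

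Levels in the dChip tables differed in brightness between the probe sets, which sets no order between genes. Gabra5, Gabrb1, Gabrg1, Gabra2 and the leading Gabrd probe set (1369048_at) were called present on all 45 arrays, and Gabra4 on 44. The pore-forming beta subunit Gabrb2 was dim: it was called present on 27 of 45 arrays, with its mean at the 31.8 and 32.4 percentile of the 2 tables, under the filter at the 40th. Of the 2 further Gabrd probe sets, 1395269_s_at was present on 44 arrays and 1395270_x_at on 0. The filter was thus passed by 7 of the 9 probe sets, which stand for 6 of the 7 genes. Counts below are of those 6 genes, each by its leading probe set.

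**Figure D1:**
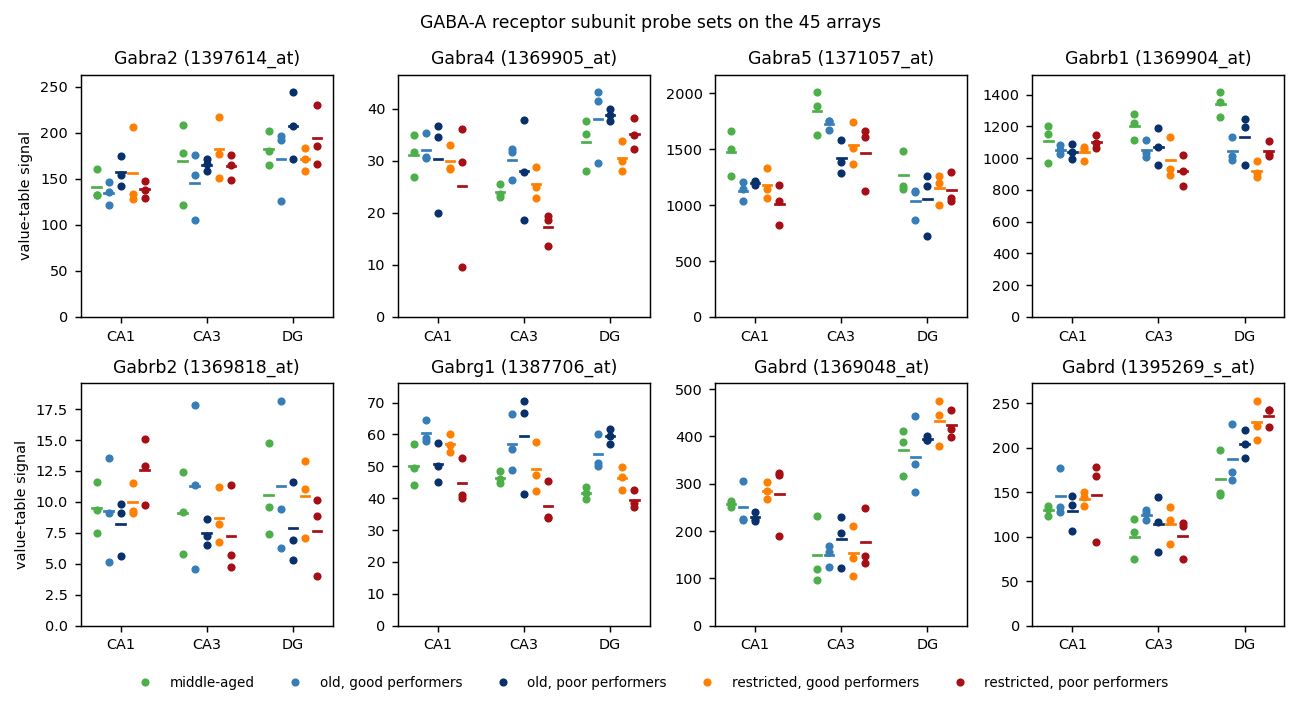
Value-table signal (linear axis from 0) of 8 of the probe sets on the 45 arrays, by region and class; points are arrays and bars the means of the 3 animals of a class. Gabrd 1369048_at lies between 281.8 and 474.2 in DG and between 97.4 and 247.9 in CA3, and Gabra5 between 1122 and 2007 in CA3 and between 722.9 and 1485 in DG.

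Taken over the 3 pairs of regions, more of the 6 genes passed the test than for age, diet or performance. For CA3 minus CA1 and DG minus CA1 alone the count was 2, as for diet in DG. The region fits also used more arrays than those of age, diet or performance. In the 9 ad libitum animals Gabrd was highest in DG, intermediate in CA1 and lowest in CA3, Gabra4 was higher in DG than in CA3, and Gabra5 ran the other way, highest in CA3. Gabrb1 and Gabrg1 did not pass the test in any pair of regions. Differences below are of log2(dChip signal + 16) with the animal as a block, tested with limma and adjusted by Benjamini-Hochberg over all 18625 probe sets that passed the filter. Of these, 22.4% were called (adjusted p under 0.05) for CA3 minus CA1, 16.5% for DG minus CA1 and 36% for DG minus CA3. Of the 6 genes, 2, 2 and 4 were called. The median difference of the 6 genes was 0.00, 0.20 and 0.16, against -0.02, -0.00 and 0.01 over all tested probe sets. The region dissections are bulk tissue, in which fewer cells of a type and less RNA per cell cannot be told apart.

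Gabrd, the subunit that takes the place of gamma in receptors outside synapses, had the widest differences of the 6 genes. Its dChip signal in the 9 ad libitum animals was 644.5 at the lowest, 697.1 at the median and 937.6 at the highest in CA1, 361.8, 466.5 and 784.5 in CA3, and 850.7, 1178 and 1361 in DG. Every DG value was above every CA3 value, and CA1 overlapped both. The means were 744 ± 96.8 in CA1, 529 ± 142 in CA3 and 1146 ± 147 in DG (SD, n = 9). DG exceeded CA3 by 1.12 ± 0.11 (log2, SE), 2.17-fold, in 9 of 9 animals (limma adjusted p = 9.73e-07). DG exceeded CA1 by 0.61 ± 0.11 in 8 of 9 animals (limma adjusted p = 0.000932), and CA3 lay below CA1 by -0.51 ± 0.11 in 9 of 9 (limma adjusted p = 0.00425). All 3 steps in the order of its levels thus passed the test. Without ALO_PP animal 2, whose CA3 array went against its label, they were 1.16, 0.61 and -0.55, and all remained called. In all 9 fits that left out 1 animal, ALO_GP animal 1 among them, they ran from 1.06 to 1.19, 0.56 to 0.70 and -0.57 to -0.45. Each stayed called. Within the middle-aged animals alone (set A) the Gabrd differences were 1.09 (limma adjusted p = 0.0191), 0.51 (0.239) and -0.58 (0.152), and within the old ad libitum animals alone (set B) 1.14 (0.000301), 0.66 (0.0115) and -0.48 (0.061). Dentate granule markers moved the same way between DG and CA3, with 4 of 4 tested higher in DG, and their part in the Gabrd difference was not tested.

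The second Gabrd probe set, 1395269_s_at, gave smaller differences. In the same dChip table they were 0.05 ± 0.09 for CA3 minus CA1 (limma adjusted p = 0.725), 0.18 ± 0.09 for DG minus CA1 (0.205) and 0.13 ± 0.09 for DG minus CA3 (0.28). The value table gave -0.24 (0.076), 0.41 (0.0025) and 0.65 (1.36e-05) for the same Gabrd differences, so in that table its order of the regions was that of 1369048_at, though the step between CA3 and CA1 did not pass. Over arrays the pair correlated by 0.33 and 0.43 in the 2 dChip tables (27 and 36 arrays) and by 0.86 in the value table (45 arrays), all of which share regions. The third probe set, 1395270_x_at, lay between 1.54 and 18.66 in the ad libitum dChip signals and carried no call.

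Gabra4, the alpha subunit that pairs with the Gabrd product in granule cells, had dChip signals of 91.4, 141.1 and 166.9 (lowest, median, highest) in CA1 of the ad libitum animals, 69.1, 109.9 and 152 in CA3, and 126.9, 162.9 and 229.4 in DG. The ranges overlapped, but DG was above CA3 in each of the 9 animals. DG exceeded CA3 by 0.60 ± 0.11, 1.51-fold (limma adjusted p = 0.0003). The steps on either side of CA1 did not pass the test: CA3 minus CA1 was -0.30 ± 0.11 (0.0534) and DG minus CA1 0.30 ± 0.11 (0.065). The first passed without ALO_PP animal 1 (-0.37, limma adjusted p = 0.0175), and the second without ALO_GP animal 1 (0.37, 0.0188) or ALO_PP animal 3 (0.32, 0.0372). The Gabra4 difference between DG and CA3 was 0.69 (limma adjusted p = 0.00885) within the middle-aged and 0.55 (0.0258) within the old ad libitum animals. It was 0.63 without ALO_PP animal 2 and 0.29 (limma adjusted p = 0.00413) in the value table, where it stayed called.

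Gabra5, the alpha subunit of receptors outside synapses in pyramidal cells, was lowest in DG and highest in CA3. Its dChip signals were 4713, 4892 and 5675 (lowest, median, highest) in CA1, 4955, 5740 and 6250 in CA3 and 3827, 4616 and 5404 in DG. The ranges of neighbouring regions overlapped, while within animals CA3 was above both CA1 and DG in 9 of 9. CA3 exceeded CA1 by 0.19 ± 0.05 (limma adjusted p = 0.00656), and DG lay below CA3 by -0.32 ± 0.05, 1.25-fold (3.3e-05). DG minus CA1 was -0.13 ± 0.05 (0.065), and without ALO_PP animal 2 it was -0.15 (limma adjusted p = 0.0351), which passed. By value-table signals the Gabra5 difference between DG and CA3 was -0.58. Within sets A and B it was -0.29 (limma adjusted p = 0.0359) and -0.34 (0.00403), whereas CA3 minus CA1 was 0.20 (0.147) and 0.19 (0.0991) and was no longer called.

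Gabra2, an alpha subunit of synapses that include those on the axon initial segment, was slightly higher in DG. Its dChip signals were 491.8, 557.8 and 692.4 (lowest, median, highest) in CA1, 396.6, 596.7 and 796.4 in CA3 and 472.8, 699.1 and 950.8 in DG. The 3 ranges overlapped widely. DG exceeded CA1 by 0.30 ± 0.09 in 8 of 9 animals (limma adjusted p = 0.0286) and CA3 by 0.25 ± 0.09 in 7 of 9 (0.0437). Each Gabra2 call held in 3 of the 9 fits that left out 1 animal, with differences of 0.27 to 0.38 for DG minus CA1 and 0.19 to 0.28 for DG minus CA3. It was lost without ALMA animal 1, ALO_GP animals 2 and 3 or ALO_PP animals 2 and 3 in both contrasts, without ALMA animal 3 for DG minus CA1 and without ALMA animal 2 for DG minus CA3. The Gabra2 call of DG over CA3 was kept in 2 of 8 other settings and that of DG over CA1 in 5 of 8.

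Among the others, Gabrb1, a beta subunit that assembles with alpha subunits around the pore, had dChip means of 4520 ± 218 in CA1, 4605 ± 200 in CA3 and 4857 ± 468 in DG (SD, n = 9). Its differences were 0.03, 0.10 and 0.07 for CA3 minus CA1, DG minus CA1 and DG minus CA3, with limma adjusted p from 0.192 to 0.724. Gabrg1, a gamma subunit of restricted expression, had means of 168 ± 23.2, 166.5 ± 33.1 and 158.5 ± 12.1 (SD, n = 9) and differences of -0.02, -0.07 and -0.05 (0.559 to 0.856). For these, the order of the regions lay within the spread between animals. Gabrb2 was not tested under the filter, and its means were 45.3 ± 7.18, 43.4 ± 14 and 46.9 ± 15.8 (SD, n = 9).

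**Figure D2:**
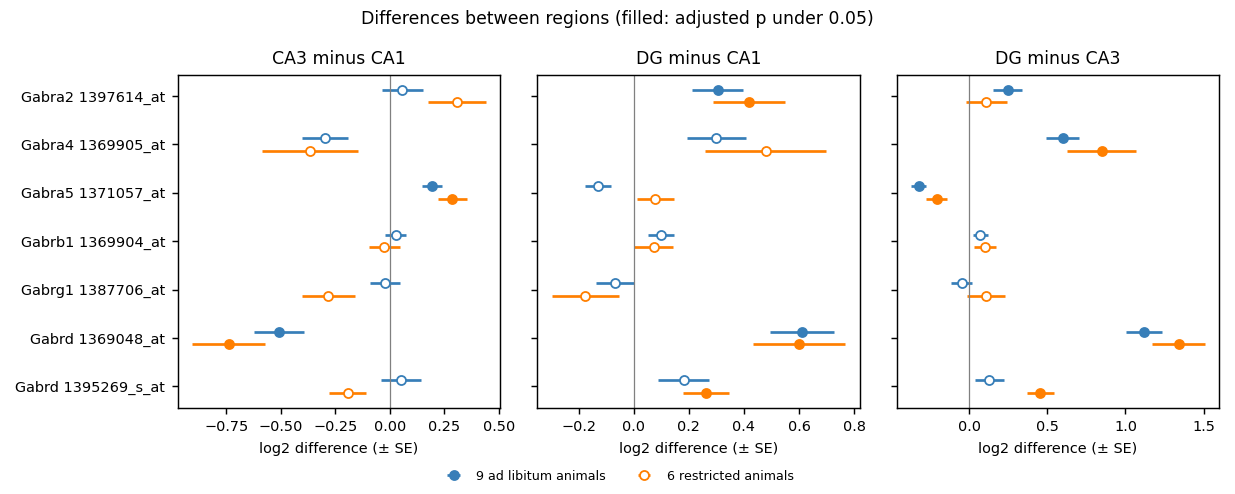
Log2 differences (± SE) between regions for the 7 probe sets that passed the filter, in 9 ad libitum and 6 restricted animals; filled points have an adjusted p under 0.05. Gabrd 1369048_at lies at 1.12 and 1.34 for DG minus CA3, and Gabra5 at -0.32 and -0.21, while Gabrb1 and Gabrg1 have no filled point.

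The 6 restricted animals, which the first comparison did not use, gave the same order for Gabrd. In the 3 CRO_GP animals region and poly-A control set cannot be told apart between CA1 and DG. Here 26.7%, 27.7% and 16.8% of the tested probe sets were called for CA3 minus CA1, DG minus CA1 and DG minus CA3, and 2, 2 and 3 of the 6 genes. Gabrd was 827.7, 955.8 and 1039 (lowest, median, highest dChip signal) in CA1, 351.5, 521 and 1016 in CA3 and 1272, 1452 and 1613 in DG. DG overlapped neither of the other regions. The highest CA3 value, 1016, was that of CRO_PP animal 3, and the other 5 lay between 351.5 and 651.3. DG exceeded CA3 by 1.34 ± 0.17, 2.53-fold (limma adjusted p = 0.000226), and CA1 by 0.60 ± 0.17 (0.0209), each in 6 of 6 animals. CA3 lay below CA1 by -0.74 ± 0.17 in 5 of 6 (0.00766). Without CRO_PP animal 3 the Gabrd differences were 1.49, 0.54 and -0.94, all called. The call of DG over CA1 was lost without CRO_GP animal 1 (0.55, limma adjusted p = 0.0747) or CRO_GP animal 2 (0.59, 0.0634). The second Gabrd probe set was called here for DG minus CA3 (0.46 ± 0.08, 0.00307) and DG minus CA1 (0.26 ± 0.08, 0.0373), with DG overlapping neither region, and its call over CA1 held in 2 of 6 fits without 1 animal, those without CRO_PP animal 2 or 3. Within set C alone, the 3 restricted poor performers, 0 of the 6 genes were called by limma, and Gabrd in DG minus CA3 was 1.15 (0.0927).

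In the same restricted animals Gabra4 was 25.9, 121.7 and 161.5 (lowest, median, highest dChip signal) in CA1, 37.4, 75.3 and 135.8 in CA3 and 121.4, 145.3 and 178 in DG. DG was above CA3 in each of the 6. The difference of 0.85 ± 0.22, 1.8-fold, passed the test (limma adjusted p = 0.0193), but not without CRO_PP animal 1 (0.75, 0.0647) or CRO_PP animal 2 (0.85, 0.0643). In the value table the Gabra4 difference was 0.40 and did not pass (limma adjusted p = 0.061), nor did it pass without the block of animals (0.0748). Gabra5 exceeded its CA1 level in CA3 by 0.29 ± 0.07 (limma adjusted p = 0.00875), and its DG level lay below CA3 by -0.21 ± 0.07 (0.0493), a call that held in 1 of 6 fits without 1 animal, that without CRO_PP animal 3 (-0.27 to -0.16). Gabra2 exceeded its CA1 level in DG by 0.42 ± 0.13 (0.0339), which also held in 1 of 6 such fits, that without CRO_GP animal 3 (0.31 to 0.55). Without that animal Gabra2 was also called higher in CA3 than in CA1 (0.43, 0.0359, against 0.31 ± 0.13 and 0.102 with it). Without CRO_PP animal 3, Gabra4 (-0.51, 0.0151) and Gabrg1 (-0.30, 0.0366) were also called lower in CA3 than in CA1, and Gabrg1 lower in DG than in CA1 (-0.30, 0.047).

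Across the 45 arrays Gabra4 went with Gabrd (0.56) and Gabra5 against it (-0.67, Pearson r of log2 value-table signals, given as a description). After the mean of each region was taken off, both relations were weaker, at 0.20 for Gabra4 and Gabrd and -0.25 for Gabra5 and Gabrd. Gabra4 and Gabra5 correlated by -0.17 across arrays and by 0.29 within regions. The higher values within regions were 0.52 for Gabra4 and Gabrg1 and 0.50 for Gabra5 and Gabrb1. These arrays share animals, poly-A control sets and overall brightness. The plots of Gabra4 and Gabra5 against Gabrd show 3 regional clouds.

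**Figure D3:**
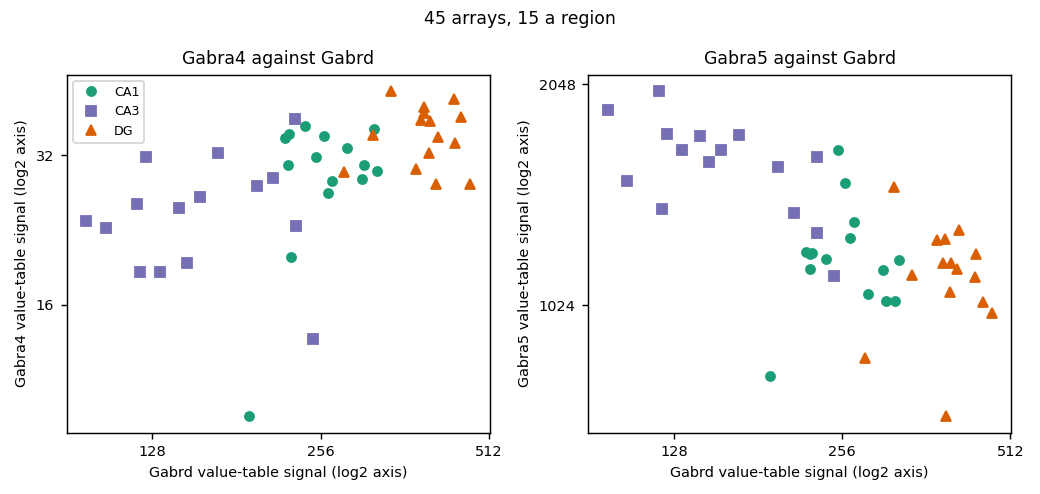
Value-table signals of Gabra4 (left) and Gabra5 (right) against Gabrd on 45 arrays, 15 per region, on log2 axes. DG arrays lie to the right, at Gabrd signals of 281.8 to 474.2, and CA3 arrays to the left, at 97.4 to 247.9, with CA3 highest for Gabra5.

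Among 9549 other genes with a symbol, those with the highest Pearson r to Gabrd over the 45 arrays were Usp13 (0.94), Zdhhc22 (0.93) and Ablim3 (0.93), and within regions their r was 0.74, 0.72 and 0.64. For Gabra5 they were Ap3s1 (0.91), Mcts1 (0.89) and Ccng1 (0.89), and for Gabra4 Sesn1 (0.87), Xbp1 (0.85) and Alg10 (0.85). The values within regions for these 6 genes were 0.79 to 0.85. Lower likeness was found for Gabrb1, led by Slc25a4 (0.73), Gabra2, led by Slc7a14 (0.67), and the dim Gabrb2, led by Impact (0.57). No member was among the 3 genes of highest r to another member.

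Age was compared in ad libitum animals, 6 old against 3 middle-aged in each region. None of the 6 genes passed the test, although 27.6% of the tested probe sets were called in CA1, 20% in CA3 and 10.3% in DG. With limma, 0 of the 6 had an unadjusted p under 0.05 in any region, against 7381, 6390 and 4760 of all 18625 in CA1, CA3 and DG. The median difference of the 6 genes was 0.04 in CA1, 0.00 in CA3 and 0.04 in DG, against 0.06, 0.05 and 0.04 over all tested.

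Gabra5 was below the middle-aged mean in every old animal of every region. In CA1 the middle-aged dChip signals were 4713, 5453 and 5675 and the old ones 4754, 4885 and 5015 (lowest, median, highest), so the groups overlapped through 1 middle-aged animal. Its differences were -0.11 ± 0.07 in CA1 (limma adjusted p = 0.238), -0.12 ± 0.07 in CA3 (0.27) and -0.17 ± 0.09 in DG (0.283). For the value table the Gabra5 difference in CA1 was -0.33 and passed the test (limma adjusted p = 0.0319), and without ALMA animal 1 the dChip difference there was -0.19 and passed (0.0348). Value-table means in CA1 were 1478 ± 203 in ALMA, 1130 ± 83 in ALO_GP, 1201 ± 15.2 in ALO_PP, 1177 ± 138 in CRO_GP and 1013 ± 183 in CRO_PP (SD, n = 3).

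Gabrb1 was lower on average in DG, where all 6 old animals were below the middle-aged mean and the difference was -0.17 ± 0.09 (limma adjusted p = 0.262). It was 0.01 in CA1 and -0.02 in CA3. For Gabra4 the CA1 difference was 0.26 ± 0.15 (0.22), that in CA3 0.27 ± 0.18 (0.318) and that in DG 0.13 ± 0.16 (0.661). Without ALO_PP animal 3 the Gabra4 difference in CA3 was 0.39 and passed (limma adjusted p = 0.0291).

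For Gabrg1 the CA1 difference was 0.18 ± 0.11 (limma adjusted p = 0.258), that in CA3 0.19 ± 0.15 (0.423) and that in DG 0.10 ± 0.07 (0.44), where 6 of 6 old animals were above the middle-aged mean. In the value table the Gabrg1 difference in DG was 0.33 and passed (limma adjusted p = 0.0377). Its DG signals there were 39.8, 41.6 and 43.5 in the middle-aged and 50.1 to 61.8 in the old ad libitum animals, without overlap. Without ALO_PP animal 1 its dChip difference in CA1 was 0.25 and passed (limma adjusted p = 0.0395).

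Gabra2 and Gabrd differed little with age: in the order CA1, CA3, DG, the values were 0.06, -0.10 and 0.01 for Gabra2 and -0.08, 0.02 and 0.07 for Gabrd, each with a limma adjusted p of 0.651 or more. The dim Gabrb2 in DG was 54, 64.3 and 73.8 in the middle-aged and 26.9 to 52.1 in the old animals by dChip signal, without overlap, but 7.43 to 14.7 and 5.32 to 18.1 in the value table, with overlap. With no filter on low values its difference there was -0.57 ± 0.15 and did not pass (limma adjusted p = 0.0742). The age effect was not found to differ between regions for any of the 6 genes (F test in limma with the animal as a random block, adjusted p = 0.999 for each, 0 of 6 with an unadjusted p under 0.05), a test in which 0.0215% of all probe sets were called. Of all 18625 probe sets 749 had such an unadjusted p.

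Diet was compared in the old animals, 6 restricted against 6 ad libitum per region. In DG, 2 of the 6 genes passed the test, both lower in restricted animals: Gabrg1 and Gabra4. There 31.8% of all tested probe sets were called, a share close to 2 of 6, and 3608 of the 5914 called were lower. In CA1 and CA3, 0.0215% and 8.43% were called and 0 of the 6 genes, with 1 (Gabrd) and 2 (Gabra4 and Gabrg1) at an unadjusted p under 0.05 in limma. Of all 18625 probe sets 4463 in CA1 and 4838 in CA3 had such a p. The median difference of the 6 genes was -0.08 in CA1, -0.01 in CA3 and 0.03 in DG, against -0.03, -0.05 and -0.05 over all tested.

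The DG dChip signals of Gabrg1 were 165.8, 162.5 and 171.1 in ALO_GP, 171.6, 180.7 and 190.4 in ALO_PP, 125.6, 139.3 and 149.9 in CRO_GP, and 145.2, 111.2 and 127.2 in CRO_PP. All 6 restricted values were below all 6 ad libitum values. The difference was -0.35 ± 0.07, 1.28-fold (limma adjusted p = 0.00321), and it stayed called in each of the 12 fits that left out 1 animal. The value table gave -0.30 (0.0103). The restricted animals of the value table, at 37.2 to 49.8, lay around the middle-aged ones, at 39.8 to 43.5. In the authors' deposited table of DG genes that differed with diet, Gabrg1 is listed 1.287-fold lower (p = 0.0001111), and in their table over all regions 1.251-fold lower (p = 0.0009306). The other 6 members stand in none of the authors' 8 deposited tables for age and diet.

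Gabra4 in DG was 137.7, 200.3 and 243.6 (lowest, median, highest dChip signal) in ad libitum and 121.4, 145.3 and 178 in restricted animals. The groups overlapped, and each restricted animal was below the ad libitum mean. The difference was -0.36 ± 0.13, 1.29-fold (limma adjusted p = 0.0458), and it held in 3 of the 12 fits without 1 animal (-0.45 to -0.30). It was lost without ALO_GP animal 2 or 3, ALO_PP animal 2 or 3, CRO_GP animal 2 or 3, or any CRO_PP animal. In the value table it was -0.15 (0.167).

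Beside these DG results, the summed astrocyte and oligodendrocyte markers had lower medians in restricted animals in the value table, with overlap between the diets. The 7 astrocyte markers summed to 15033, 17827 and 19451 (lowest, median, highest) in ad libitum and 12708, 14397 and 16214 in restricted DG, and the 7 oligodendrocyte markers to 9972, 12773 and 18542 and to 9071, 10032 and 11622. The 7 markers of neurons in general also had a lower median sum in restricted DG (13041, against 14089 in ad libitum). Median sums were lower too for dentate granule, interneuron, CA1 pyramidal, oligodendrocyte precursor and blood markers. They were higher for CA3 pyramidal, microglia, choroid plexus and meninges and fibroblast markers. In the test 1 of 7 astrocyte and 1 of 7 oligodendrocyte markers fell with restriction and 0 rose, while 2 of the 7 neuron markers rose. Of all 18625 tested probe sets 3608 fell and 2306 rose, so neither glial list fell in a larger share than all probe sets. Of 6 microglia markers 1 fell and 0 rose, with median sums of 648.4 and 656 in ad libitum and restricted DG, and of 5 tested CA3 pyramidal markers 2 rose. The part of these markers, and of the poly-A control set, in the DG differences was not tested.

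In CA1 and CA3 the dChip signals of Gabra4 and Gabrg1 were lower in the restricted poor performers than in the restricted good performers. Gabra4 was 107, 81.5 and 25.9 in CRO_PP and 146.8, 136.2 and 161.5 in CRO_GP in CA1 (dChip signal), and 41.9, 62.1 and 37.4 against 135.8, 108.5 and 88.6 in CA3. Gabrg1 was 145.9, 136.6 and 90.8 against 191.9, 179 and 192.3 in CA1, and 93.4, 107 and 77.4 against 152.6, 168.6 and 159.7 in CA3. In both genes and both regions the CRO_PP values did not overlap those of CRO_GP in this table. How many of all probe sets part these classes in the same way was not counted, so the separation is given as a description. In the value table Gabra4 in CA1 overlapped, at 36.04, 29.78 and 9.53 in CRO_PP and 28.36, 28.65 and 33.11 in CRO_GP, as did Gabrg1 in CA3, at 34.05, 45.36 and 33.68 against 47.41, 57.69 and 42.29. The lowest CA1 and CA3 values of both genes were those of animal 3, whose arrays the authors marked.

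Over all 12 animals the diet differences of Gabra4 were -0.55 ± 0.30 in CA1 (limma adjusted p = 0.266) and -0.60 ± 0.26 in CA3 (0.163). Those of Gabrg1 were -0.25 ± 0.16 (0.326) and -0.50 ± 0.19 (0.115), the latter with 6 of 6 restricted animals below the ad libitum mean. Without CRO_PP animal 3 the diet differences in CA1 and CA3 were -0.26 (limma adjusted p = 0.327) and -0.45 (0.186) for Gabra4 and -0.12 (0.53) and -0.39 (0.117) for Gabrg1, and in the value table -0.14 and -0.27 for Gabra4 and -0.10 and -0.32 for Gabrg1. Without ALO_PP animal 2 the CA3 differences were -0.52 for Gabra4 and -0.40 for Gabrg1. The CRO_PP arrays of CA1 are in poly-A control set C and the CRO_GP arrays in set B. With the set as a block the CA1 differences were -0.03 for Gabra4 and 0.03 for Gabrg1. In CA1 set C holds the CRO_PP arrays alone, so this fit compares only CRO_GP with the ad libitum animals. It cannot tell the set apart from the class CRO_PP.

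Of the other genes, Gabrd was above the ad libitum mean in 6 of 6 restricted animals in CA1 (0.24 ± 0.10, limma adjusted p = 0.177) and in 5 of 6 in DG (0.17 ± 0.10, 0.214). Gabra5 was above it in 6 of 6 in DG (0.13 ± 0.07, 0.135). In the order CA1, CA3, DG, the differences were -0.10, 0.22 and 0.00 for Gabra2 and 0.05, -0.00 and 0.06 for Gabrb1 (limma adjusted p from 0.353 to 0.99). The diet effect was not found to differ between regions for any of the 6 genes (F test in limma, lowest adjusted p = 0.361, for Gabra5, 0 of 6 with an unadjusted p under 0.05), with 0.0268% of all probe sets called. Of all 18625 probe sets 3776 had such an unadjusted p.

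**Figure D4:**
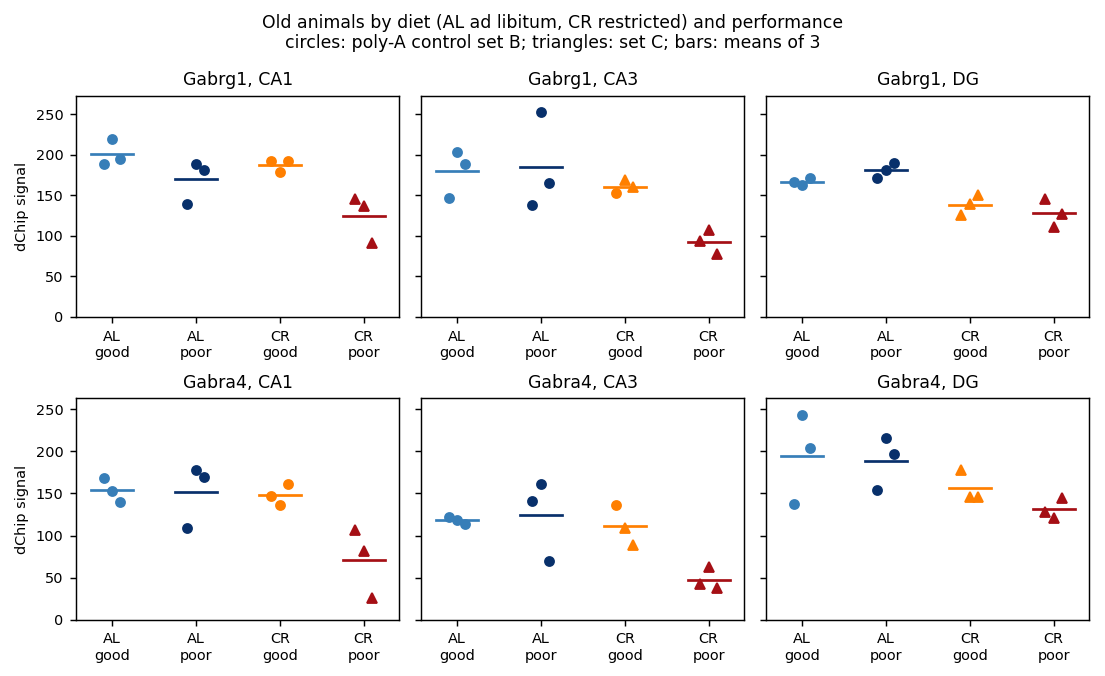
DChip signal (linear axis from 0) of Gabrg1 and Gabra4 in the 12 old animals of each region by diet (AL ad libitum, CR restricted) and performance; points are animals, bars means of 3, circles poly-A control set B and triangles set C. In DG the Gabrg1 values of restricted animals end at 149.9 and those of ad libitum animals start at 162.5.

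Performance was tested in the same arrays with diet in the model, 6 poor against 6 good performers. In all 3 regions limma called 0 of the 6 genes and 0% of all probe sets (3039, 716 and 2034 of 18625 had an unadjusted p under 0.05 in CA1, CA3 and DG). Of the 6 genes, 1, 1 and 0 had such a p. Gabrg1 in CA1 had the lowest, with -0.39 ± 0.12 (limma adjusted p = 0.255). Its poor performers had dChip signals of 90.8, 142.4 and 189.1 (lowest, median, highest) and its good performers 179, 192.1 and 219.1, so the groups overlapped. For Gabra4 the difference was -0.54 ± 0.27 in CA1 (0.325), while CA3 gave -0.51 ± 0.23 (0.944) and DG -0.12 ± 0.13 (0.787). Without CRO_PP animal 3 the differences were -0.29 (limma adjusted p = 0.207) for Gabrg1 in CA1 and -0.28 (0.312) and -0.40 (0.863) for Gabra4 in CA1 and CA3. Without ALO_PP animal 2 Gabra4 in CA3 was -0.65 (0.888).

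Whether diet acted differently in poor and good performers was tested as the difference between the 2 diet effects. Of all probe sets 0.945% were called in CA1, 0.333% in CA3 and 0% in DG (906 with an unadjusted p under 0.05), and 0 of the 6 genes in each region. In CA3, 2 of the 6, Gabra4 and Gabrg1, had an unadjusted p under 0.05 in limma, in CA1 and DG 0. Of all 18625 probe sets 3026 in CA1 and 2549 in CA3 had such a p. Gabra4 gave -1.01 ± 0.46 in CA1 (limma adjusted p = 0.318) and -1.01 ± 0.35 in CA3 (0.248), and Gabrg1 -0.72 ± 0.27 in CA3 (0.285). Without CRO_PP animal 3 these were -0.54, -0.90 and -0.61, and in the value table -0.15, -0.24 and -0.31 for Gabra4 in CA1, Gabra4 in CA3 and Gabrg1 in CA3. Without ALO_PP animal 2 the CA3 values were -0.80 for Gabra4 and -0.49 for Gabrg1. These contrasts rest on the CRO_PP arrays, which are all of poly-A control set C, and that set's part in them was not tested.

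**Figure D5:**
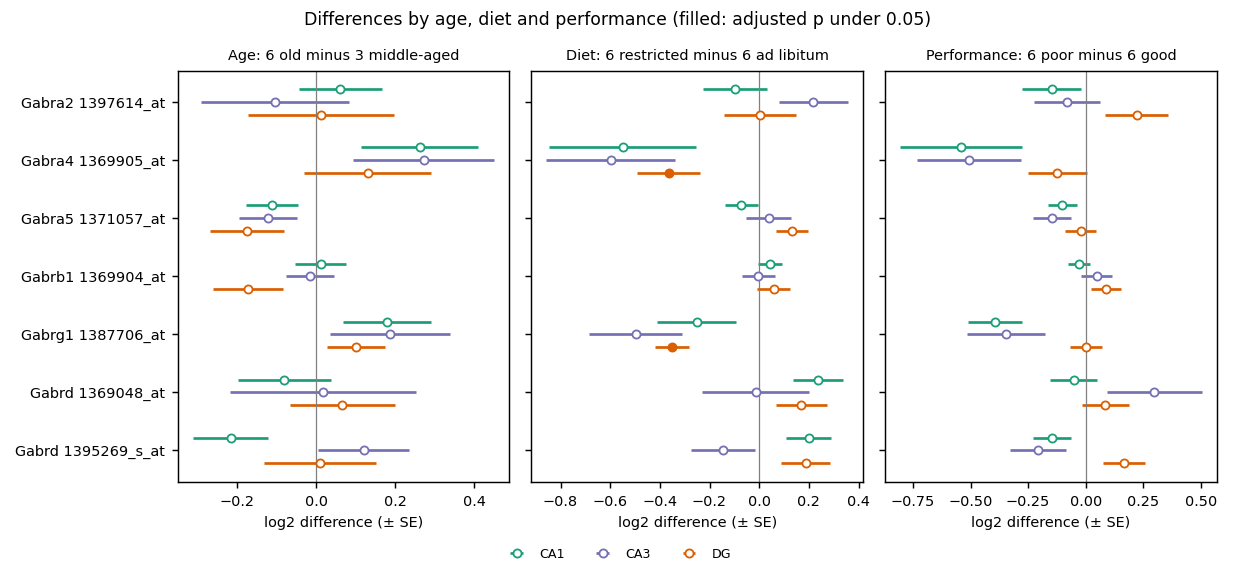
Log2 differences (± SE) of the 7 probe sets that passed the filter for age, diet and performance in CA1, CA3 and DG; filled points have an adjusted p under 0.05. The filled points are Gabra4 (-0.36) and Gabrg1 (-0.35) for diet in DG.

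Restricted old animals were also set against the middle-aged animals in the value table, the deposited values that hold both, 6 against 3 per region. The middle-aged arrays are the same as in the age comparison. In DG, 29.9% of the probe sets were called and 1 of the 6 genes, Gabrb1. Its DG signals were 1356, 1262 and 1414 in middle-aged and 879.5, 997.8 and 1107 (lowest, median, highest) in restricted animals, without overlap. The difference of -0.44 ± 0.09, 1.36-fold (limma adjusted p = 0.00324), held in 9 of 9 fits without 1 animal. The old ad libitum classes lay between or beside these, with DG means of 1043 ± 78.5 in ALO_GP and 1135 ± 153 in ALO_PP, against 922.5 ± 54.5 in CRO_GP and 1048 ± 51.6 in CRO_PP (SD, n = 3). In dChip signals the diets stood the other way round, with Gabrb1 in DG at 0.06 ± 0.07 for restricted minus ad libitum, not called. Its dChip age difference in DG was -0.17 ± 0.09, also not called.

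The second Gabrd probe set was higher in restricted DG, at 208.9, 233.2 and 252.2 (lowest, median, highest) against 147, 149.2 and 197.5 in the middle-aged, with no overlap (0.47 ± 0.10, limma adjusted p = 0.00519). The leading one had the same sign in 6 of 6 restricted animals and did not pass (0.20 ± 0.10, 0.156). In CA1 and CA3, 4.11% and 8.98% of all probe sets were called and 0 of the 6 genes. There 1 gene in each had an unadjusted p under 0.05 in limma, Gabra5 in CA1 (-0.43 ± 0.15, adjusted p = 0.129) and Gabrb1 in CA3 (-0.34 ± 0.11, 0.0898). Of all 18625 probe sets 4236 in CA1 and 4506 in CA3 had such an unadjusted p. The Gabrb1 difference in CA3 passed without CRO_GP animal 1 (-0.39, limma adjusted p = 0.0494) or CRO_PP animal 3 (-0.30, 0.0484). Poly-A control set A against B and C cannot be told apart from these groups.

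The rest of the GABA system was described through 6 lists of genes, whose counts are read beside the share of all probe sets called: for age 27.6% in CA1, 20% in CA3 and 10.3% in DG, and for diet in DG 31.8%. Between regions of the ad libitum animals the share was 22.4% for CA3 minus CA1, 16.5% for DG minus CA1 and 36% for DG minus CA3. In the last, 2984 of 18625 were lower and 3719 higher. With age, 3814 were higher and 1335 lower in CA1, 2825 and 904 in CA3, and 1527 and 390 in DG. Age differences of the lists, too, cannot be told apart from poly-A control set A against B. Of 12 other GABA-A subunits on the array 3 passed the filter.

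Of 8 genes of the GABA-B receptor, the receptor that acts through G proteins, and of its effectors, 4 were tested. With restriction 3 rose and 0 fell in DG: the receptor subunits Gabbr2 (0.28 ± 0.06, limma adjusted p = 0.00697) and Gabbr1 (0.18 ± 0.05, 0.0164) and the potassium channel subunit Kcnj3 (0.37 ± 0.10, 0.0191). The median of the list was 0.23 against -0.05 over all tested. Gabbr2 also rose with restriction in CA3 (0.24 ± 0.07). With age 1 of 4 fell in DG, Kcnj3 (-0.54 ± 0.12, 0.0237), and 0 in CA1 and CA3.

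Of 8 genes of GABA synthesis, transport and breakdown 6 were tested, and 3 were lower and 0 higher in DG than in CA3 of the ad libitum animals. These were the vesicular transporter Slc32a1 (-0.50 ± 0.08), the breakdown enzyme Abat (-0.29 ± 0.07) and the synthesis enzyme Gad2 (-0.34 ± 0.09). The list shares Gad1, Gad2 and Slc32a1 with the interneuron markers, of which 7 of 9 were lower in DG. With restriction in DG 1 fell, Aldh5a1, the last enzyme of GABA breakdown (-0.47 ± 0.09, limma adjusted p = 0.00248), and with age 1 rose, Abat in CA1 (0.29 ± 0.09).

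Of 7 tested genes of chloride transport, which sets the direction of the GABA current, 2 rose with age in CA1, a share close to that of all probe sets, the carbonic anhydrase Car7 (0.38 ± 0.11) and the anion exchanger Slc4a3 (0.20 ± 0.06). In CA3 both rose (0.59 ± 0.12 and 0.32 ± 0.07) and the chloride channel Clcn2 fell (-0.46 ± 0.12), and in DG 0 were called. Between regions Car7 was lower in DG than in CA1 (-0.67 ± 0.08). Slc12a5, the main chloride exporter of neurons, was lower in CA3 than in CA1 (-0.10 ± 0.03) and was not called for age or diet. With restriction in DG 1 of the 7 rose, Slc4a3 (0.22 ± 0.05).

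Of 16 tested genes of receptor anchoring and trafficking, 3 rose and 0 fell with age in CA1, a share below that of all probe sets: Gabarap, which binds gamma subunits (0.49 ± 0.08, limma adjusted p = 0.0013), Clptm1, which holds receptors back from the surface (0.73 ± 0.15, 0.0057), and the synaptic adhesion protein Slitrk3 (0.34 ± 0.08). The same 3 rose in CA3, and Gabarap (0.43 ± 0.09) and Clptm1 (0.77 ± 0.19) in DG. With restriction in DG 5 rose and 3 fell, among them Iqsec3, a partner of gephyrin (0.46 ± 0.07), Hap1, which takes part in receptor recycling (0.28 ± 0.06), Rdx, which anchors Gabra5 receptors outside synapses (-0.62 ± 0.14), and Plcl1 (-0.24 ± 0.06). Of 2 tested genes of neurosteroid synthesis both were lower in DG than in CA3, the reductase Srd5a1 (-0.26 ± 0.10) and the mitochondrial protein Tspo (-0.44 ± 0.15). Srd5a1 rose with age in CA1 (0.35 ± 0.11, limma adjusted p = 0.046).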

How the data were processed

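Total RNA of CA1, CA3 and DG was hybridised to 1 array per region and animal, and the labels name 3 animals per class, so replicates are animals. The authors deposited dChip signal values, linear model-based indices, in a table of 27 ad libitum arrays and a table of 36 old arrays, with detection calls per the file headers (a unit of their own). A second deposited signal for every array, here the value table, comes with no stated software or scaling. In a deposited descriptor sheet the authors state another grouping for dChip normalisation than the tables show, and the dChip version is not named. The authors' deposited tables of changed probe sets, with a p and a signed fold (other units), were read for the 7 genes only.

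Here 16 was added to each signal before log2, 57 controls were removed, and a filter kept the 18625 probe sets of each table whose mean log2 value lay past its 40th percentile. Fits used limma 3.58.1 (R 4.3.3), with two-sided p adjusted by Benjamini-Hochberg over all of these and called under 0.05. Regions had the animal as a block, age and diet were fitted per region, performance had diet in the model, and for age by region and diet by region the animal entered as a random effect through duplicateCorrelation (0.0286 and 0.0897, kept under the alternatives). Tables and figures were made with Python 3.11.15, pandas 2.3.3, numpy 2.4.6 and matplotlib 3.10.9, and the fits were tested on simulated data. Restricted old against middle-aged animals used the value table. A fold is of signal plus 16 and understates the change of dim genes.

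All probe sets of the 7 genes are named, each gene led by its brightest. Lists (other GABA-A subunits, GABA-B, GABA synthesis, chloride transport, anchoring, neurosteroids, and markers of 12 cell types) are described by counts, medians and up to 4 genes of smallest p per comparison, of which a part is printed. Likeness names the 3 genes of highest r. Some genes of the lists and of the likeness ranking are not reported here. Genes and lists were chosen with earlier results of these data known. A CA3 array of ALMA animal 2 repeats the animal code of animal 1 in its description, a DG array of CRO_GP animal 2 is described as a poor performer, and both were placed by title. CA3 titles number the poor performers 1 higher than the other regions; the animal's number is used. All per-sample columns were mapped. Classes differ in age, diet or performance, so equal title numbers in different classes name different animals. Deviations from class means correlated by -0.00827 on average over 50 pairs of the same title number and by 0.00685 over 112 others. These correlations are given as a description only. The number of arrays limits the precision of every value. Alternatives were the value table, no filter, pseudocounts of 1 and 64, quantile normalisation, region-wise dChip tables, other blocks, single poly-A control sets and each animal left out.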

Additional observations from a re-analysis of the deposited data

Results flagged for a closer look

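In 54 groups of 6 arrays (each probe set, region and diet group of old animals), 3 values stood apart by Dixon's ratio of gap to range of log2(dChip signal + 16), past its critical value, and chance alone flags about 1 group in 20. Gabrb2 in CA3 of ALO_GP animal 2 was 78.64 (dChip signal, before log2), with the other 5 old ad libitum animals at 33.13 to 46.59 (ratio 0.631). Gabra2 in CA3 of ALO_GP animal 1 was 433.7, with the others at 622.3 to 739.3 (ratio 0.675). The second Gabrd probe set in CA1 of CRO_PP animal 3 was 652.8, with the other 5 restricted animals at 796.1 to 870 (ratio 0.690). This last array is one that the authors marked as an outlier.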

How the results depend on the processing

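No called difference of a member changed sign under any setting tried. Over single probe sets and comparisons, 1063 values under other settings kept their side of the threshold, 36 lost a call and 7 gained one, and with 1 animal left out 1544 kept it, 39 lost a call and 13 gained one. By value-table signals, 1 gene was called for age in CA1 and 1 in DG (0 and 0 in dChip). For diet in DG 1 gene instead of 2 was called in the value table, with no filter, with quantile normalisation and with the title number as a replicate block, and the lost one was Gabra4. With the block Gabrg1 was -0.35 (limma adjusted p = 0.00611) and Gabra4 -0.36 (0.052). Without the block of animals, 1 gene was called for DG minus CA1 in ad libitum and 1 for DG minus CA3 in restricted animals. In the middle-aged animals alone 0 genes were called for CA3 minus CA1 and 0 for DG minus CA1, and in the old ad libitum animals alone 0 and 1, where fewer animals entered. In restricted animals 1 gene was called for DG minus CA1 in the value table and 1 with no filter. In the restricted poor performers alone, a choice made after seeing the data, 0 were called in each pair of regions. With 1 animal left out, counts ran from 0 to 1 for age in CA1, 0 to 1 for age in CA3, 1 to 2 for diet in DG, 1 to 3 for DG minus CA1 in ad libitum animals, 2 to 4, 0 to 2 and 1 to 3 for CA3 minus CA1, DG minus CA1 and DG minus CA3 in restricted animals, and 0 to 1 for restricted old against middle-aged CA3. Causes of these changes were not tested. The dim probe sets limit what can be said of Gabrb2, whose signal lay under the filter, and of Gabra4, whose DG minus CA3 difference was 0.60 in the dChip and 0.29 in the value table. That of the second Gabrd probe set went from 0.13 to 0.65.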
